A study of Homo sapiens with 12 samples.

Results

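Among the genes most often used as a read-out of hypoxia, 8 lie outside glycolysis, pH control and angiogenesis: NDRG1, ERO1A, PPP1R3C, MXI1, DDIT4, ANKRD37, STC1 and STC2. They were taken by gene symbol, in a choice made with earlier results of these data known, and all 8 were found among the 20263 genes of the deposited table. All 8 also passed the filter that left 11731 genes for testing, 3 or more libraries with a TPM of 1 or higher. TPM is a level of mRNA corrected for gene length and scaled to a fixed total in each library. The levels were measured by mRNA sequencing in U87 cells, the established human glioblastoma line U-87 MG, with 3 libraries in each of 4 groups. The groups were cells with an empty vector (vector), cells with HIF1α knocked out (HIF1α-ko), cells with HIF2α knocked out (HIF2α-ko) and cells with both knocked out (HIF1α/2α-ko). All 12 libraries came from cells in hypoxia at 1% O2 for 72 h according to the record of the experiment, so the rise of these genes from normal oxygen to hypoxia was not measured here. For mRNA work in general the methods give a shorter time in hypoxia. Whether a knockout line was 1 clone or a pool is not given in the sources used here, and the effect of a knockout cannot be told apart from any other difference between the lines.

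When oxygen falls, the prolyl hydroxylases that mark HIF1α and HIF2α for degradation lose their substrate, and both proteins accumulate, pair with HIF1β (ARNT) and bind DNA at a short core motif. HIF1α and HIF2α share that motif but not all of their target genes, and marker genes of hypoxia are often read as if they reported HIF activity as a whole. Several of the 8 are also known to respond to other stresses: DDIT4 and STC2 to the ATF4 arm of the stress response, NDRG1 to metal ions and differentiation signals.

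Sequence around the start of transcription is shown for members whose levels changed in a knockout below, with the core motif marked. The members shown were thus picked by their levels, and STC2, whose matches are counted below, is not printed. Whether HIF proteins act on these stretches was not tested. Windows of 300 bases around the annotated start of transcription were taken from RefSeq (build GRCh38.p14). They cover 6 of the 8 members: DDIT4, ERO1A, ANKRD37, STC2, MXI1 and PPP1R3C. Windows of NDRG1 and STC1 were left out and not examined, which says nothing about whether they hold the motif. Capitals mark each match of the HIF core motif, ACGTG or GCGTG, on either strand, so that its reverse complements CACGT and CACGC are capitals too. ANKRD37 lies at chr4:185396591-185396890 on the plus strand, PPP1R3C at chr10:91633022-91633321 on the minus strand, DDIT4 at chr10:72273674-72273973 on the plus strand, ERO1A at chr14:52695509-52695808 on the minus strand, and the second of 3 MXI1 start sites at chr10:110209981-110210280 on the plus strand.
ANKRD37: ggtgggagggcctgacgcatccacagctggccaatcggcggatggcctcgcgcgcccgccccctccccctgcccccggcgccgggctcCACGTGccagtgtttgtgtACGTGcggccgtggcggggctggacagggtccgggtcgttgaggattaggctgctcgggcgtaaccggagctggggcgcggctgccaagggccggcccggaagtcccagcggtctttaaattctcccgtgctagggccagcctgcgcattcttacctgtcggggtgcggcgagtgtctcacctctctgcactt
PPP1R3C: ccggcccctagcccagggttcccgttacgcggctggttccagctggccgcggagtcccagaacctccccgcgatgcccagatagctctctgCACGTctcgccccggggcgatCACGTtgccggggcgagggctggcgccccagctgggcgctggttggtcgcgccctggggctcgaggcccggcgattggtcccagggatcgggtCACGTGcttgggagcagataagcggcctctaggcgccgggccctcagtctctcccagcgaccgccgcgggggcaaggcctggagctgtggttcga
DDIT4: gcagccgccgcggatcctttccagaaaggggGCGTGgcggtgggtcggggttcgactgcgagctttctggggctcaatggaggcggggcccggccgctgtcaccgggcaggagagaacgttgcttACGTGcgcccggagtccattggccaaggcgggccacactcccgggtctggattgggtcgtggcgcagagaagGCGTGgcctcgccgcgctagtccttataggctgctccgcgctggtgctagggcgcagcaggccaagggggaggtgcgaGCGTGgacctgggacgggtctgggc
ERO1A: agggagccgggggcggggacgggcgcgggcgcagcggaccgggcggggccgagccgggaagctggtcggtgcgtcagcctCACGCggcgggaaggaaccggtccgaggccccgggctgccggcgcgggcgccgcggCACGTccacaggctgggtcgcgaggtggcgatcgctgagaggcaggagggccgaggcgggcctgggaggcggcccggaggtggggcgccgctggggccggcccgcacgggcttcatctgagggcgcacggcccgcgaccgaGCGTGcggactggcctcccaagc
MXI1: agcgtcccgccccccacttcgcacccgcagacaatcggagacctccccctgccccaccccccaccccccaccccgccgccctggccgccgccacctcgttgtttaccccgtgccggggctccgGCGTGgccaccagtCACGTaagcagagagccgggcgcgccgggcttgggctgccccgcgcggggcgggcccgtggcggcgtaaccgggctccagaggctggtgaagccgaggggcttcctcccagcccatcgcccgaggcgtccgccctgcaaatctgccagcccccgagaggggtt

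Of the 35116 windows of this length that were counted as background, 21.4% held ACGTG, 36.5% held GCGTG and 48.4% held either. ACGTG matched 4 times in the PPP1R3C window, starting 159, 138, 45 and 44 bases upstream of the start site, and 3 times in the ANKRD37 window, 162, 161 and 143 bases upstream, and 1.98% of all windows held 3 or more. In each of these windows the 2 matches that lie 1 base apart are the 2 strands of CACGTG, the E-box that MYC and MAX proteins also bind, which 7.26% of windows held. The DDIT4 window held 1 ACGTG, 125 bases upstream, and 3 GCGTG. The ERO1A window held 1 ACGTG, 114 bases upstream, and 2 GCGTG. For MXI1 the second start site had 1 ACGTG, 113 bases upstream, and 1 GCGTG, the first had neither, and the third had 2 GCGTG. STC2 had 3 GCGTG and no ACGTG. Of all windows 4.3% held 3 or more GCGTG, as those of DDIT4 and STC2 did. A match describes the letters of the window only, and binding was not measured.

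Before the members, the libraries themselves were compared. The first vector library stood apart: on the log2(TPM + 1) scale over all tested genes it correlated with the other 2 vector libraries at r = 0.968 and 0.966, while these correlated at 0.989 with each other and libraries within the knockout groups at 0.975 to 0.992. It was the highest vector library for STC1 and DDIT4 and the lowest for STC2, MXI1, ANKRD37, ERO1A and PPP1R3C, so the comparisons of the markers with vector are given with and without it. HIF1A (HIF1α) was at 124 ± 23.5 TPM in vector (mean ± SD, n = 3 here and below) and 48.5 ± 9.35 in HIF1α-ko, a log2 change of -1.34 (adjusted p = 0.000851), or -1.41 without the first vector library. In HIF1α/2α-ko it was at 75.5 ± 11.9, at a log2 change of -0.71 from vector (adjusted p = 0.0104), or -0.78 without that library, and above HIF1α-ko by 0.64 (adjusted p = 0.0287). In HIF2α-ko it was at 86.8 ± 18.1 TPM, a log2 change of -0.52 (adjusted p = 0.112), or -0.59. The dual knockout was not shown to have less HIF1A mRNA than HIF2α-ko, since the libraries overlapped and the difference was -0.19 (95% interval -0.62 to 0.23, adjusted p = 0.453). EPAS1 (HIF2α) was at 322 ± 31.5 TPM in vector, 107 ± 17.0 in HIF2α-ko and 117 ± 14.4 in the dual knockout, with log2 changes of -1.59 (adjusted p = 0.000375) and -1.45 (adjusted p = 1.3e-05), or -1.67 and -1.54 without the first vector library. A knockout need not remove the mRNA, and protein was not measured in these files. VIM, at 5635 to 14690 TPM, and CD44 were high in all 12 libraries, whereas of the other listed glial and glioma markers NES was at 2.64 to 6.17 TPM, OLIG2 at 0.884 to 19.2 TPM, and GFAP, S100B and SOX2 under 1 TPM. The leukocyte marker PTPRC and the epithelial marker EPCAM also stayed under 1 TPM, and the endothelial marker CDH5 reached 3.63 TPM.

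The 8 genes covered a wide range of levels in vector. NDRG1, with a mean of 11147 TPM, was at rank 6 of all genes. STC1, DDIT4, MXI1 and STC2 came at ranks 262, 297, 338 and 512, PPP1R3C and ERO1A at 573 and 627, and ANKRD37 at 2603 with a mean of 39.7 TPM. All but ANKRD37 were thus among the 627 most abundant of the 20263 genes.

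**Figure D1:**
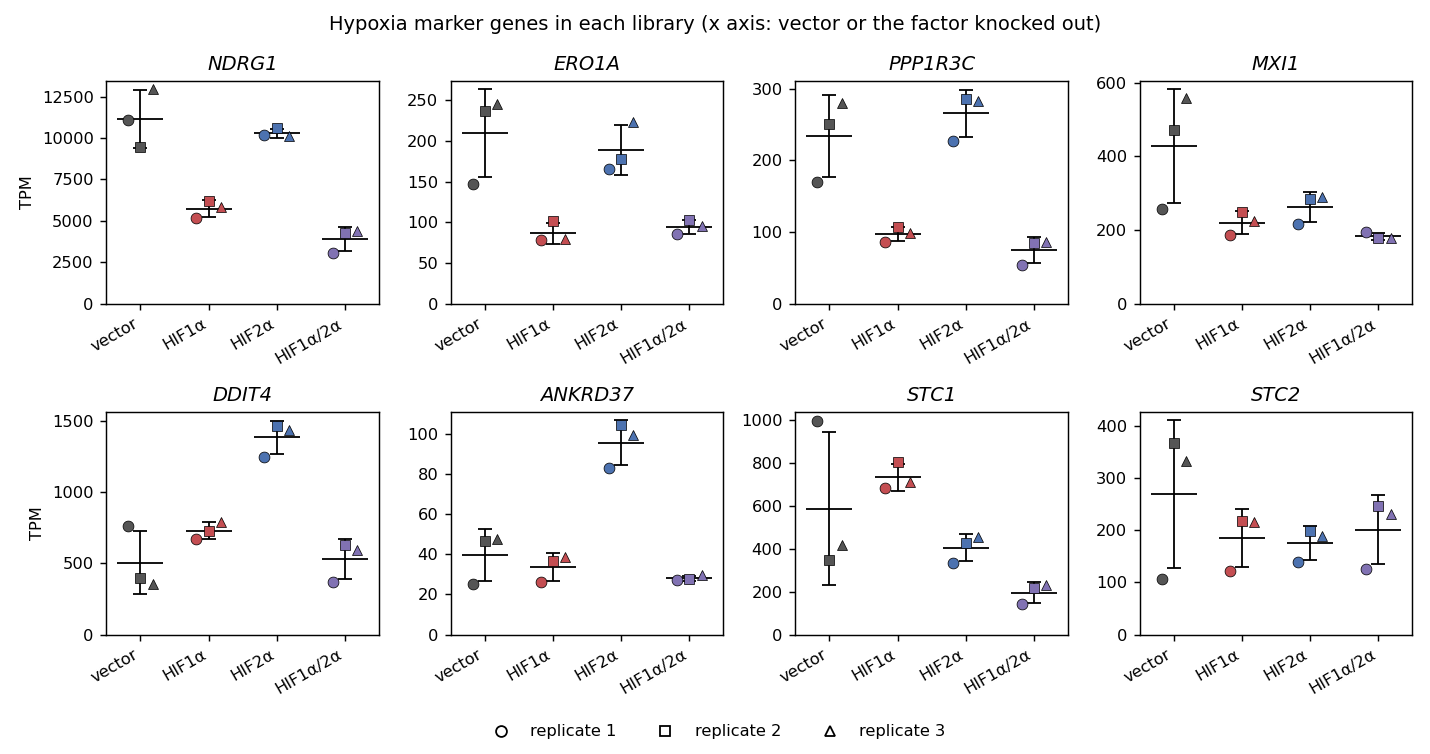
Each panel shows 1 gene, with its TPM on a linear axis from 0 in each of the 12 libraries (circle, replicate 1; square, replicate 2; triangle, replicate 3), the mean as a horizontal bar and the SD as whiskers. NDRG1, ERO1A and PPP1R3C are low in HIF1α-ko and HIF1α/2α-ko, DDIT4 and ANKRD37 are high in HIF2α-ko, STC1 is low in the dual knockout, and the replicate 1 circle is the lowest point of STC2 in all 4 groups.

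NDRG1, ERO1A, PPP1R3C and MXI1 were lower without HIF1α, and none of these 4 passed the test in HIF2α-ko. In HIF1α-ko 4 of the 8 markers were lower and 0 higher, while 8.77% of all tested genes were lower and 17.3% higher at the same threshold (limma, Benjamini-Hochberg adjusted p under 0.05). In HIF1α/2α-ko 5 of 8 were lower, the fifth being STC1, and 0 higher, against 14.8% lower and 31.8% higher among all genes. In HIF2α-ko 0 were lower and 2 higher, against 5.89% and 5.07%. At an unadjusted limma p under 0.05 the markers higher were 1 (DDIT4) in HIF1α-ko and 0 in the dual knockout, and 1 (MXI1) was lower in HIF2α-ko. When the first vector library was left out, HIF1α-ko had 6 markers lower and 2 (DDIT4 and STC1) higher, against 11.6% and 24.1% of all genes. HIF2α-ko then had 2 lower and 2 higher, against 10.2% and 11.1%, and the dual knockout 7 and 0, against 15.3% and 33.0%. Without vector replicate 2 or 3 MXI1 was lost in HIF1α-ko, which left 3 lower. The median change of the 8 was -0.65, -0.12 and -1.13 on the log2 scale in the HIF1α, HIF2α and dual knockouts. Over all tested genes it was 0.18, -0.04 and 0.21. The all-gene medians above 0 were removed by median ratio scaling, which left 0.01 in HIF1α-ko and in the dual knockout and gave the 8 markers medians of -0.85 and -1.36. With it 4 markers were again lower in HIF1α-ko, 6 were lower in the dual knockout with ANKRD37 as the sixth, and the calls over all genes changed from 2031 higher and 1029 lower to 1278 and 1527 in HIF1α-ko and from 3732 and 1741 to 2854 and 2600 in the dual knockout. In HIF2α-ko it changed them from 595 higher and 691 lower to 753 and 579, with the same counts of markers. The files do not say whether libraries of a group came from separate cultures, so that every p measures the spread between these libraries, which may be technical.

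**Figure D2:**
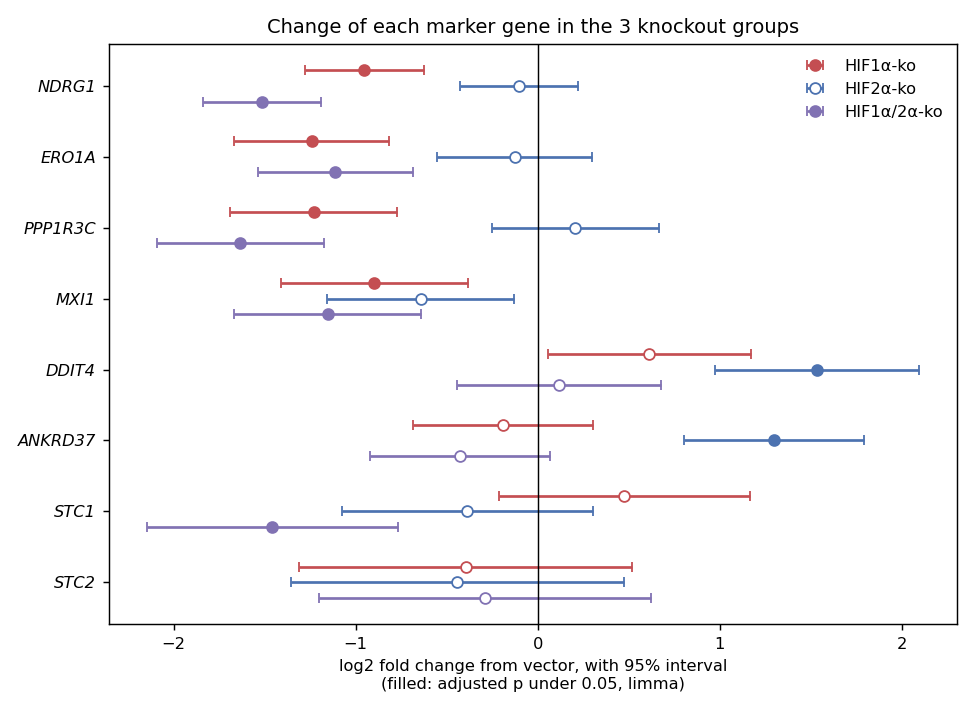
The log2 fold change of each gene from vector (horizontal axis) is plotted with its 95% interval for the 3 knockout groups, filled where the adjusted p was under 0.05. Filled red and purple points lie left of 0 for NDRG1, ERO1A, PPP1R3C and MXI1, and the filled blue points, for DDIT4 and ANKRD37 in HIF2α-ko, lie right of 0.

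NDRG1 (ENSG00000104419, GRCh38 chromosome 8, 133237171 to 133302022, minus strand) encodes a cytoplasmic stress-response protein of the N-myc downstream-regulated family. It was at 11065, 9430 and 12945 TPM in the 3 vector libraries and at 5170, 6188 and 5832 TPM in HIF1α-ko. It was at 10153, 10600 and 10120 TPM in HIF2α-ko and at 3083, 4280 and 4379 TPM in the dual knockout. The HIF2α-ko libraries lay inside the range of vector, every HIF1α-ko library lay below both, and every dual knockout library lay below HIF1α-ko. Against vector the log2 change was -0.95 ± 0.15 (SE) in HIF1α-ko, a level 1.93-fold lower (adjusted p = 0.00130), and -1.52 ± 0.15 in the dual knockout, 2.86-fold lower (adjusted p = 1.3e-05). In HIF2α-ko it was -0.10 with a 95% interval of -0.43 to 0.22 (adjusted p = 0.713). NDRG1 was the marker that depended least on the first vector library, with changes of -0.95, -0.10 and -1.51 without it. In the dual knockout NDRG1 was lower than in HIF1α-ko by 0.56 on the log2 scale (95% interval of the change -0.89 to -0.24, adjusted p = 0.0145). This call was lost with quantile normalization (-0.29, adjusted p = 0.198) and without the second HIF1α-ko library (-0.51, adjusted p = 0.0564).

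ERO1A (ENSG00000197930, chromosome 14, 52639916 to 52695900, minus strand) encodes an oxidase of the endoplasmic reticulum that passes electrons from protein disulfide isomerase to oxygen. It was at 147, 237 and 246 TPM in vector, 78.5, 102 and 79.3 TPM in the HIF1α-ko libraries, 165, 178 and 224 TPM in HIF2α-ko, and 85.2, 103 and 95.1 TPM in the dual knockout. The HIF1α-ko and dual knockout libraries overlapped with each other and lay below all libraries of the other groups. The log2 change from vector was -1.24 ± 0.20 (SE) in HIF1α-ko (2.37-fold lower, adjusted p = 0.00131) and -1.11 ± 0.20 in the dual knockout (2.16-fold lower, adjusted p = 0.000638). Without the first vector library these were -1.48 and -1.35. In HIF2α-ko the change was -0.13 (95% interval -0.55 to 0.30, adjusted p = 0.736), and -0.36 (adjusted p = 0.127) without that library. The dual knockout differed from HIF1α-ko by 0.13 (95% interval -0.29 to 0.56, adjusted p = 0.658), so that an added effect of HIF2α loss was not detected, within an interval that reaches 0.56.

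PPP1R3C (ENSG00000119938, chromosome 10, 91628442 to 91633054, minus strand) encodes a subunit that brings protein phosphatase 1 to glycogen and so favours glycogen synthesis. It was at 170, 251 and 280 TPM in vector, 86.6, 107 and 98.0 TPM in HIF1α-ko, 227, 286 and 283 TPM in HIF2α-ko, and 53.7, 84.5 and 85.4 TPM in the dual knockout. HIF2α-ko overlapped with vector, and the highest dual knockout library lay just under the lowest HIF1α-ko library. The log2 change from vector was -1.23 ± 0.21 (SE) in HIF1α-ko (2.35-fold lower, adjusted p = 0.00209) and -1.64 ± 0.21 in the dual knockout (3.11-fold lower, adjusted p = 7.5e-05). Without the first vector library these were -1.44 and -1.85. In HIF2α-ko it was 0.21 (95% interval -0.25 to 0.67, adjusted p = 0.582), and -0.01 without that library. The dual knockout differed from HIF1α-ko by -0.41 (adjusted p = 0.174). With the replicate number as a block in the 3 knockout groups, the same difference had an adjusted p of 0.0114. That pairing was inferred from these data and is not given in the labels.

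MXI1 (ENSG00000119950, chromosome 10, 110207605 to 110287365, plus strand) encodes a partner of MAX that opposes MYC at E-boxes. It was at 257, 471 and 558 TPM in vector, 186, 248 and 225 TPM in HIF1α-ko, 215, 283 and 290 TPM in HIF2α-ko, and 194, 177 and 177 TPM in the dual knockout. The 3 knockout groups lay close together and the vector libraries spread widely, the lowest of them inside the range of HIF2α-ko. The log2 change from vector was -0.90 ± 0.24 (SE) without HIF1α (adjusted p = 0.0164), -0.64 in HIF2α-ko (95% interval -1.16 to -0.13, adjusted p = 0.103) and -1.15 ± 0.24 in the dual knockout (adjusted p = 0.00173). Without the first vector library all 3 passed, at -1.23, -0.97 (adjusted p = 0.00184) and -1.49. The change in HIF1α-ko did not pass without the second vector library (-0.79, adjusted p = 0.0668), without the third (-0.67, adjusted p = 0.0738) or in a fit of the 2 groups alone (adjusted p = 0.0518). HIF1α-ko and HIF2α-ko differed by -0.26 (95% interval -0.77 to 0.26, adjusted p = 0.434), so MXI1 was not shown to follow 1 factor more than the other. The dual knockout differed from HIF2α-ko by -0.51 (adjusted p = 0.0949). The adjusted p was 0.00651 with the replicate number as a block in the knockout groups and 0.0234 with median ratio scaling (-0.79). It was 0.0157 with the 2 groups alone and 0.0108 without the first vector library.

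DDIT4 and ANKRD37 rose when HIF2α was knocked out alone, and not when HIF1α was knocked out with it. DDIT4 (ENSG00000168209, chromosome 10, 72273920 to 72276036, plus strand), also called REDD1, encodes an inhibitor of mTORC1 that acts through TSC1 and TSC2. It was at 759, 399 and 354 TPM in vector and 672, 724 and 790 TPM in HIF1α-ko. It was at 1248, 1465 and 1436 TPM in HIF2α-ko and 369, 628 and 589 TPM in the dual knockout. Every HIF2α-ko library was above all 9 other libraries, while the dual knockout overlapped with vector. The log2 change in HIF2α-ko was 1.54 ± 0.26 (SE), a level 2.90-fold higher (adjusted p = 0.00496), and 1.87 without the first vector library. In HIF1α/2α-ko the change was 0.12 (95% interval -0.44 to 0.68, adjusted p = 0.735), and 0.45 (adjusted p = 0.0755) without that library. Its sign was not stable, since median ratio scaling gave -0.11. In HIF1α-ko it was 0.61 (95% interval 0.05 to 1.17, adjusted p = 0.0960), which passed at 0.95 (adjusted p = 0.00377) without the first vector library. The dual knockout was lower than HIF2α-ko by 1.42 on the log2 scale, 2.68-fold (adjusted p = 0.000789). It differed from HIF1α-ko by -0.50 (adjusted p = 0.170), with an adjusted p of 0.0113 when the replicate number was a block in the knockout groups. Without the first vector library, and with no block, that difference also passed (adjusted p = 0.0469).

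ANKRD37 (ENSG00000186352, chromosome 4, 185396021 to 185400628, plus strand) encodes a small protein of ankyrin repeats and was the least abundant of the 8. It was at 25.0, 46.6 and 47.5 TPM in vector, 25.97, 36.6 and 38.6 TPM in HIF1α-ko, 83.0, 104 and 99.8 TPM in HIF2α-ko, and 27.1, 27.7 and 29.5 TPM in the dual knockout. The HIF2α-ko libraries again lay above all others, and the other 3 groups overlapped. The log2 change in HIF2α-ko was 1.30 ± 0.23 (SE), 2.46-fold higher (adjusted p = 0.00570), and 1.003 without the first vector library. In HIF1α-ko it was -0.19 (95% interval -0.69 to 0.30, adjusted p = 0.557). In HIF1α/2α-ko it was -0.43 (95% interval -0.92 to 0.07, adjusted p = 0.142), and it passed there at -0.65 with median ratio scaling (adjusted p = 0.0369) and at -0.72 without the first vector library (adjusted p = 0.00446). Without that library the change in HIF1α-ko also passed, at -0.49 (adjusted p = 0.0419). The dual knockout was 3.31-fold lower than HIF2α-ko (log2 difference -1.73, adjusted p = 8.4e-05).

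STC1 and STC2 encode the stanniocalcins, secreted glycoproteins, of which STC1 takes part in calcium and phosphate balance. STC1 (ENSG00000159167, chromosome 8, 23841915 to 23854807, minus strand) was lower in the dual knockout only, among the comparisons with vector over all libraries. It was at 996, 349 and 419 TPM in vector and 685, 806 and 711 TPM in HIF1α-ko. It was at 335, 428 and 454 TPM in HIF2α-ko and 140, 215 and 231 TPM in the dual knockout. Each dual knockout library was below every other library, and the vector group overlapped with both single knockouts, with HIF1α-ko through its first library alone. The log2 change from vector was -1.46 ± 0.32 (SE) in the dual knockout (2.75-fold lower, adjusted p = 0.00255) and -0.998 without the first vector library (adjusted p = 0.00225). In HIF1α-ko it was 0.48 (95% interval -0.21 to 1.16, adjusted p = 0.280), and 0.94 (adjusted p = 0.00527) without that library. In HIF2α-ko it was -0.39 (95% interval -1.07 to 0.30, adjusted p = 0.472), and 0.07 without it. From HIF1α-ko to the dual knockout STC1 was 3.82-fold lower (log2 difference -1.93, adjusted p = 0.000944), while the difference from HIF2α-ko, -1.07 (adjusted p = 0.0151), was lost without the third HIF2α-ko library (adjusted p = 0.0503) or the first dual knockout library (adjusted p = 0.0568). HIF1α-ko was above HIF2α-ko by 0.86 (adjusted p = 0.0634), with an adjusted p of 0.000918 under the replicate block in the knockout groups. This difference also passed without that block, in a fit of the 2 groups alone (adjusted p = 0.00346). It passed as well without the first (adjusted p = 0.00559) or the second vector library (adjusted p = 0.0456).

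STC2 (ENSG00000113739, chromosome 5, 173314713 to 173329503, minus strand) passed in none of the 7 contrasts over all 12 libraries. It was at 106, 369 and 334 TPM in vector, 122, 218 and 217 TPM in HIF1α-ko, 139, 198 and 190 TPM in HIF2α-ko, and 126, 247 and 231 TPM in the dual knockout. Replicate 1 was the lowest library of every group, and the groups overlapped throughout. The log2 changes from vector were -0.40 (95% interval -1.31 to 0.52, adjusted p = 0.508), -0.44 (-1.36 to 0.47, adjusted p = 0.547) and -0.29 (-1.20 to 0.62, adjusted p = 0.597) in the HIF1α, HIF2α and dual knockouts. Without the first vector library they were -0.97 (adjusted p = 0.0339), -1.01 (adjusted p = 0.0417) and -0.86 (adjusted p = 0.0414), all past the threshold. The 3 knockout groups differed from each other by 0.05 to 0.15 on the log2 scale, with intervals that reached -0.87 and 1.07.

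**Figure D3:**
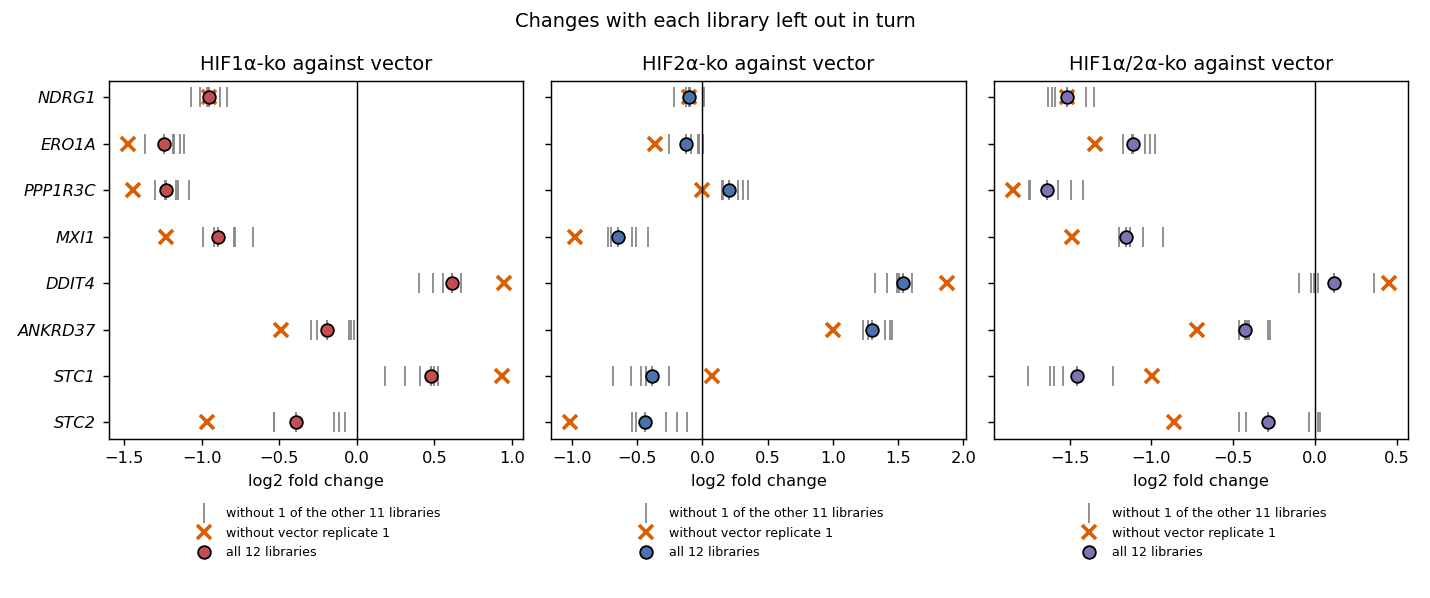
For each gene the log2 fold change from vector is drawn with all 12 libraries (filled circle), without the first vector library (orange cross) and without each of the other 11 libraries (grey ticks), in 1 panel per knockout group. The cross departs farthest from the circle for STC2, STC1 and DDIT4 in HIF1α-ko and coincides with it for NDRG1.

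The single knockouts were also compared directly, since each was measured against the same vector libraries. HIF1α-ko was lower than HIF2α-ko for 5 of the 8 markers, at log2 differences of -0.85 for NDRG1 (adjusted p = 0.00204), -1.12 for ERO1A (adjusted p = 0.00200), -1.44 for PPP1R3C (adjusted p = 0.000643), -1.49 for ANKRD37 (adjusted p = 0.000818) and -0.92 for DDIT4 (adjusted p = 0.0221), and higher for 0. Among all genes 7.37% were lower and 17.8% higher. The DDIT4 difference did not pass without 1 of 4 libraries, replicate 1 or 2 of HIF1α-ko or replicate 2 or 3 of HIF2α-ko, at adjusted p of 0.0508 to 0.0682. The dual knockout was lower than HIF2α-ko for 6 markers (all but MXI1 and STC2) and higher for 0, against 12.9% and 33.5% of all genes. It was lower than HIF1α-ko for 2, STC1 and NDRG1, and higher for 0, against 10.6% and 17.7%. The first vector library also enters the spread that these comparisons share. Without it HIF1α-ko was lower than HIF2α-ko for 5 and higher for 1, STC1 (adjusted p = 0.00559), against 9.01% and 22.9% of all genes. The dual knockout was then lower than HIF2α-ko for 7, MXI1 among them (adjusted p = 0.0108), and higher for 0, against 14.9% and 36.3%. It was lower than HIF1α-ko for 3, DDIT4 among them (adjusted p = 0.0469), and higher for 0, against 13.5% and 21.2%.

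Whether the dual knockout equalled the sum of the 2 single knockouts was tested with an interaction term, the log2 change in the dual knockout minus the changes in HIF1α-ko and HIF2α-ko. It passed below 0 for 3 markers and above 0 for 0, against 7.35% and 13.2% of all genes. For DDIT4 it was -2.03 (95% interval -2.82 to -1.24, adjusted p = 0.00338) and for ANKRD37 -1.54 (-2.24 to -0.84, adjusted p = 0.00716). Both kept the call without any 1 library, at -2.37 to -1.79 and -1.71 to -1.24. For STC1 it was -1.55 (-2.52 to -0.57, adjusted p = 0.0299), and -2.01 (adjusted p = 0.000486) without the first vector library. The STC1 term did not pass without 1 of 7 other libraries, replicates 2 and 3 of vector, of HIF1α-ko and of HIF2α-ko and replicate 1 of HIF1α/2α-ko, at adjusted p of 0.0551 to 0.0744, or with no filter on low genes (adjusted p = 0.0614). NDRG1 (-0.46, adjusted p = 0.141), ERO1A (0.26, adjusted p = 0.543), MXI1 (0.39, adjusted p = 0.439), STC2 (0.55, adjusted p = 0.549) and PPP1R3C (-0.61, adjusted p = 0.166) did not pass, so that a departure from the sum was not shown for them. Without the first vector library MXI1 passed above 0, at 0.72 (adjusted p = 0.0257).

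**Figure D4:**
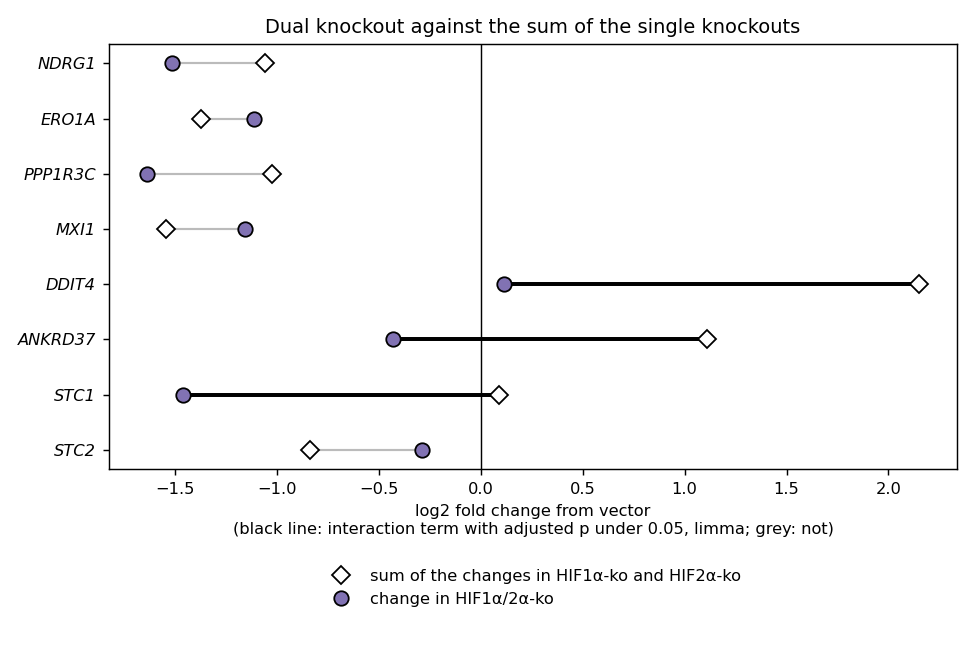
For each gene the log2 fold change from vector in the dual knockout (purple circle) is joined to the sum of the changes in HIF1α-ko and HIF2α-ko (white diamond), with a black line where the interaction term passed. The circles of DDIT4, ANKRD37 and STC1 lie left of their diamonds by 2.03, 1.54 and 1.55.

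Beside the 8 markers, 42 other genes known to be induced by hypoxia were read from the same fit, among them glycolytic enzymes, collagen hydroxylases and mitophagy receptors. In HIF1α-ko 29 of 42 were lower and 0 higher, against 8.77% and 17.3% of all genes, with a median log2 change of -1.08, and 1 was higher at an unadjusted limma p under 0.05. The lowest p values belonged to BNIP3, a mitophagy receptor, at -3.76, and to the glycolytic enzyme ENO1, at -2.03. In HIF1α/2α-ko 28 were lower and 0 higher (all genes 14.8% and 31.8%), with a median of -0.98, led by LOX, a collagen cross-linking enzyme, at -3.22, and TMEM45A, at -3.20. In HIF2α-ko 1 was lower and 7 higher (all genes 5.89% and 5.07%), with a median of 0.23. The lowest p values were those of ANGPTL4, a secreted inhibitor of lipoprotein lipase, at 1.41 (adjusted p = 0.00297) and of P4HA2, a collagen prolyl hydroxylase, at 0.64 (adjusted p = 0.00286). The changes of ANGPTL4 stand near those of DDIT4 and ANKRD37 in that group. The count of 7 depended on the fit, with 4 to 14 under the alternatives tried. With the first vector library left out, HIF1α-ko had 30 lower and 1 higher, HIF2α-ko 3 lower and 9 higher, and the dual knockout 30 lower and 0 higher. Among all genes the shares lower and higher were then 11.6% and 24.1%, 10.2% and 11.1%, and 15.3% and 33.0% in the same order.

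**Figure D5:**
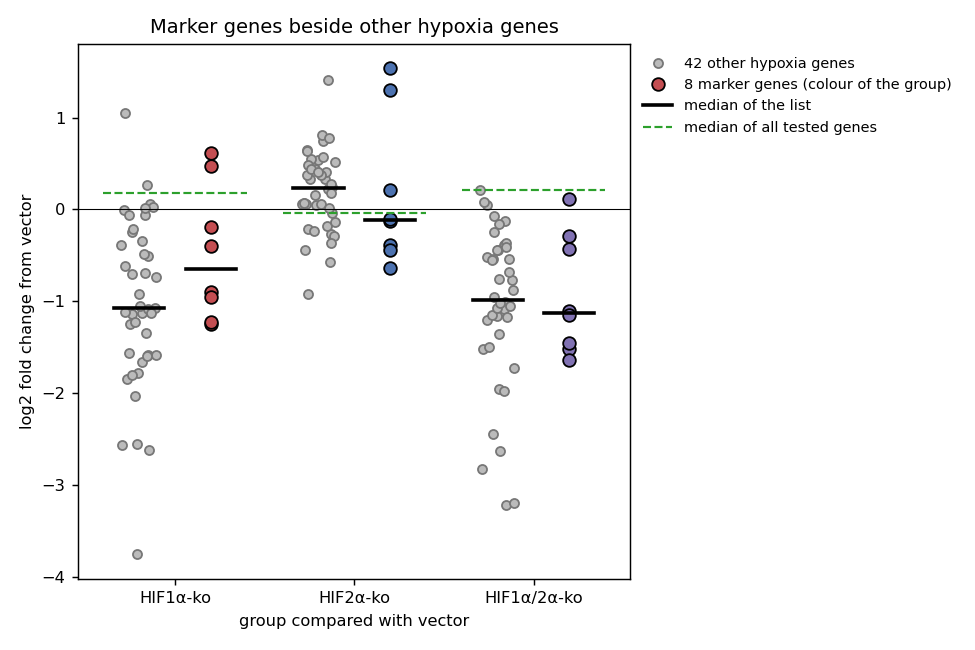
The log2 fold changes from vector of the 42 other hypoxia genes (grey) and of the 8 markers (coloured) are plotted by knockout group, with the median of each list as a black bar and the median of all tested genes as a green dashed line. In HIF1α-ko and HIF1α/2α-ko both medians lie below the dashed line, and in HIF2α-ko the medians are 0.23 and -0.12.

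The relatives and partners of the markers were read in the same way, against the same shares over all genes (HIF1α-ko, 8.77% lower and 17.3% higher; HIF2α-ko, 5.89% and 5.07%; dual knockout, 14.8% and 31.8%). Of the other NDRG genes, NDRG3 was lower in HIF2α-ko (-0.75, adjusted p = 0.0493), a call lost without the first vector library, and NDRG2 and NDRG4 passed in no knockout, so that beside the fall of NDRG1 in HIF1α-ko 0 of its 3 relatives passed, also at an unadjusted limma p under 0.05. ERO1B, the paralog of ERO1A, rose where ERO1A fell, by 1.25 without HIF1α (adjusted p = 0.00911) and 0.95 in the dual knockout (adjusted p = 0.0171). It was a low gene, at means of 1.76 TPM in vector, 5.71 TPM in HIF1α-ko and 4.53 TPM in the dual knockout. Of 11 tested genes of oxidative folding, ERO1B included, 4 were higher and 0 lower in HIF1α-ko, among them the disulfide isomerase PDIA4 at 1.36 (adjusted p = 0.0104). In HIF1α/2α-ko 3 were higher and 4 lower, and in HIF2α-ko 0 passed in limma, with 2 higher and 0 lower at an unadjusted p under 0.05. The share higher in the dual knockout was near that of all genes. Leaving out the first vector library gave HIF1α-ko 7 higher and 0 lower, HIF2α-ko 3 and 0, and the dual knockout 3 and 4. Over all genes 24.1% and 11.6%, 11.1% and 10.2%, and 33.0% and 15.3% were then higher and lower in the same order.

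Around DDIT4, 11 of 13 listed genes of mTORC1 control were tested. In HIF1α/2α-ko 5 were higher and 1 lower, where 31.8% and 14.8% of all genes were. MTOR, the kinase itself, was higher by 1.90, TBC1D7, a further subunit of the TSC complex, by 1.39, and SESN1 and SESN2, inhibitors that sense stress and amino acids, by 1.16 and 2.78. MTOR and SESN1 were low genes, at means of 1.75 and 3.14 TPM in vector and 9.34 and 7.94 TPM in the dual knockout. RPTOR, the scaffold of mTORC1, was at -1.11 (adjusted p = 0.000122). In HIF2α-ko, where DDIT4 itself rose, 0 were higher (2 at an unadjusted limma p under 0.05) and 1 lower, and in HIF1α-ko only SESN2 passed, at 1.67. If the first vector library was left out, HIF1α-ko had 3 higher and 4 lower, HIF2α-ko 0 and 2, and the dual knockout 5 and 2. The shares of all genes higher and lower were then 24.1% and 11.6%, 11.1% and 10.2%, and 33.0% and 15.3% in the same order. DDIT4L, the paralog, did not pass in any knockout (0.62, -0.09 and -0.53 in the HIF1α, HIF2α and dual knockouts).

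Around PPP1R3C, 13 of 19 listed genes of glycogen turnover were tested. In HIF1α-ko 5 were lower and 2 higher, against 8.77% and 17.3% of all genes. GYS1, the muscle-type glycogen synthase, was at -2.40 (adjusted p = 2.0e-06) and PGM1, which interconverts glucose phosphates, at -1.55 (adjusted p = 1.9e-05). In HIF1α/2α-ko 6 were lower and 2 higher (all genes 14.8% and 31.8%), with GYS1 at -2.49 and another glycogen-targeting subunit, PPP1R3B, at -1.69, while GYG1, the primer of glycogen, was at 1.65 and PYGB, a glycogen phosphorylase, at 1.61. PPP1R3B was lower in all 3 knockouts, with -0.77 for HIF1α-ko (adjusted p = 0.00230) and -0.47 for HIF2α-ko (adjusted p = 0.0420). PPP1R3E did not pass in any, and PPP1R3D was too low to be tested. In HIF2α-ko 1 gene of the list was lower and 1 higher (all genes 5.89% and 5.07%). The counts lower and higher were 6 and 3 for HIF1α-ko, 2 and 1 for HIF2α-ko and 6 and 3 for the dual knockout when the first vector library was left out. All-gene shares lower and higher were then 11.6% and 24.1%, 10.2% and 11.1%, and 15.3% and 33.0% in the same order.

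Around MXI1, 9 of 11 listed genes of the MAX network were tested. In HIF1α-ko 1 was higher (17.3% of all genes were), in HIF2α-ko 1 was lower (5.89% of all genes) and in the dual knockout 1 was higher (31.8% of all genes), or 3 without the first vector library (33.0% of all genes). MXD4, a paralog of MXI1, was at 0.70 in HIF1α-ko (adjusted p = 0.0273), and MXD1 and MXD3 passed in no knockout.

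The genes whose levels ran most like each marker over the 12 libraries were found by Pearson's r of log2(TPM + 1), as a description in which the 4 groups weigh on every value. For NDRG1 they were LPAR5 (0.978), JAM2 (0.972) and EEIG2 (0.968), and for ERO1A FAM216A (0.976), CCDC34 (0.976) and NIM1K (0.972). For PPP1R3C they were TCAF2 (0.992), TCAF2C (0.984), which overlaps TCAF2 and cannot be taken as separate, and NDNF (0.983). MXI1 ran most like TRIM9 (0.979), SMS (0.971) and FN1 (0.969). DDIT4 ran most like PPFIA3 (0.962), ZBTB22 (0.948) and BEST1 (0.947), and ANKRD37 like TSEN34 (0.964), ETV3 (0.959) and NYAP1 (0.959). STC1 had TFPI (0.992), ADGRF4 (0.973) and TCTN2 (0.973), and STC2 had SCCPDH (0.939), NGLY1 (0.918) and PROB1 (0.914), the lowest of the 8 lists. Among the markers themselves r was 0.95 for NDRG1 with PPP1R3C, 0.93 for ERO1A with PPP1R3C, 0.66 for DDIT4 with ANKRD37, 0.02 for STC1 with ANKRD37 and -0.34 for DDIT4 with STC2. With ranks in place of levels (Spearman) only 4 of the 24 listed genes stayed among the closest 3.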

How the data were processed

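Messenger RNA of 12 libraries of U87 cells in hypoxia was sequenced from libraries made with a commercial mRNA kit. The authors deposited 1 table of TPM values with 1 column per library and no pooling, and per the labels the submitters' processing notes name FastQC 0.11.2, Trimmomatic 0.36, HISAT2 2.0, bedtools 2.26.0 and the build GRCh38. The counter and the annotation are not given in the sources used here. The columns summed to 999955 to 999982, so the depth of each library is unknown and no counting interval was given. Groups came from the labels, and 3 columns were taken as vector because their names hold no knockout code.

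TPM was transformed to log2(TPM + 1), which understates the change of low genes. A gene was tested if its TPM reached 1 in 3 or more libraries, which 11731 genes did. All 12 libraries entered 1 limma model (version 3.58.1, R 4.3.3), fitted with a mean-variance trend. Every adjusted p is from limma with Benjamini-Hochberg adjustment over all tested genes of its contrast, at a threshold of 0.05, and every interval and SE is from the same fit. The script was tested on simulated data. Positions are from GENCODE 29, promoter windows from RefSeq.

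The members and gene lists were chosen with earlier results of these data known. Beside the members, the genes named were the 2 with the smallest p per knockout in the lists of hypoxia and ATF4 genes, those past the threshold with a log2 change of at least 1 in the partner lists, fixed paralogs, and the 3 genes most like each member. Other list genes are given as counts. All-gene shares were counted at an adjusted p only, so counts at an unadjusted limma p stand without a background.

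Deviations from the group means were correlated over genes between same-numbered libraries. In the 3 knockout groups r was 0.463 to 0.508 (replicate 1), 0.227 to 0.250 (replicate 2) and 0.196 to 0.222 (replicate 3), and on this ground alone the number was taken to pair them. Deviations from a mean of 3 libraries cancel out within a group. A shift of replicate 1 shared by the groups would therefore also raise r for replicates 2 and 3. Calls made only under the block thus rest on a pairing not shown for replicates 2 and 3 by themselves. With vector r was only -0.0265 to 0.163, and vector was left unpaired. Alternatives were a pseudocount of 0.1, no filter, a mean TPM of at least 5, median ratio scaling, quantile normalization, no mean-variance trend, the 2 groups alone, the replicate block, and each library left out.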

Additional observations from a re-analysis of the deposited data

Results flagged for a closer look

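For DDIT4, ANKRD37 and STC1 the change with HIF2α knockout differed between lines with and without HIF1α knockout. This was the test of the difference itself, the interaction term in limma, adjusted over all tested genes. For DDIT4 the term was -2.03 on the log2 scale, with changes of 1.54 from vector to HIF2α-ko and of -0.50 from HIF1α-ko to the dual knockout. For ANKRD37 the term was -1.54, with changes of 1.30 and -0.24 in the same order. For STC1 it was -1.55, with changes of -0.39 and -1.93, and this call is the least firm of the 3, since leaving out 1 of 7 libraries ended it. These terms share the vector libraries with every other comparison with vector. HIF1A mRNA in the dual knockout was above HIF1α-ko and was not shown to be below HIF2α-ko. How much HIF1α or HIF2α protein remained in each line was not measured in these files. With 3 libraries in each group, no library was tested as an outlier within its group.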

How the results depend on the processing

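Of 1136 alternative values of the members' changes, 1068 kept their direction and side of the threshold, 28 came to pass, 19 no longer passed and 21 changed sign. Values that changed sign were uncalled: NDRG1 in HIF2α-ko with quantile normalization (0.073), DDIT4 in HIF1α/2α-ko with median ratio scaling (-0.11), and STC2 with the same scaling in HIF1α/2α-ko against HIF2α-ko (-0.12) and HIF1α-ko against HIF2α-ko (-0.20). With 1 library left out, HIF2α-ko against vector ran from -0.22 to 0.010 for NDRG1, -0.36 to 0.0048 for ERO1A, -0.68 to 0.073 for STC1 and -0.0064 to 0.35 for PPP1R3C, and HIF1α/2α-ko against vector from -0.10 to 0.45 for DDIT4 and -0.86 to 0.031 for STC2. STC2 ran from -0.17 to 0.41 in HIF1α/2α-ko against HIF1α-ko, -0.025 to 0.46 against HIF2α-ko and -0.11 to 0.32 in HIF1α-ko against HIF2α-ko.

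Counts of markers moved as follows. Lower in HIF2α-ko were 0, 1 with the replicate block (MXI1, adjusted p = 0.0455), and 0 to 2 with 1 library left out. Lower in HIF1α/2α-ko against HIF1α-ko were 2, 1 with quantile normalization, 4 with the replicate block on the 3 knockout groups, and 1 to 3 with 1 library left out. Higher in HIF1α-ko against HIF2α-ko were 0, 1 with the 2 groups alone, 1 with that block, and 0 to 1 with 1 library left out. Lower in HIF1α-ko were 4, and 3 to 6 with 1 library left out, and lower in HIF1α/2α-ko 5, and 5 to 7. Higher in HIF1α-ko were 0 to 2, and with an interaction above 0 were 0 to 1, with 1 library left out. The block over all 4 groups also brought ANKRD37 in HIF1α/2α-ko (adjusted p = 0.0422), MXI1 (0.0466) in HIF1α/2α-ko against HIF2α-ko, PPP1R3C (0.0230) in HIF1α/2α-ko against HIF1α-ko and the PPP1R3C interaction (0.0224) past the threshold, and ended no call of a marker.

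Calls over all genes in HIF2α-ko were 595 higher and 691 lower. They were 224 and 250 with the 2 groups alone, and 894 and 1174 with the block. In HIF1α-ko against HIF2α-ko 2084 higher and 865 lower became 1032 and 1300 with median ratio scaling, and 4438 and 1489 with the block on the knockout groups. With that block HIF1α/2α-ko against HIF1α-ko went from 2076 higher and 1246 lower to 3398 and 2286. With median ratio scaling the higher genes in HIF1α-ko went from 2031 to 1278 and the lower genes in HIF1α/2α-ko against HIF2α-ko from 1509 to 2468. With quantile normalization that last count was 2614, the lower genes in HIF1α/2α-ko went from 1741 to 2848, the higher genes in HIF1α-ko against HIF2α-ko were 1345, and interactions below 0 went from 862 to 1312. With 1 library left out, higher and lower genes were 250 to 1304 and 219 to 1193 in HIF2α-ko, 1010 to 2828 and 542 to 1366 in HIF1α-ko, 847 to 2689 and 574 to 1057 in HIF1α-ko against HIF2α-ko, 1367 to 2484 and 847 to 1588 in HIF1α/2α-ko against HIF1α-ko, and 976 to 2051 and 542 to 1513 for the interaction. The causes were not tested. Of the 32 mean levels of the markers, 27 moved by less than 1 SD under median ratio scaling (factors 0.846 to 1.19) and 5 by more. Depth is unknown, so its limit on ANKRD37, the lowest marker, could not be given.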

Other observations

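A separate list held 18 genes of the ATF4 and unfolded protein response pathways, which are known to raise DDIT4 and STC2 under amino acid or endoplasmic reticulum stress. In HIF1α-ko 12 of 18 were higher and 1 lower, with a median log2 change of 1.14. In the dual knockout 15 were higher and 0 lower, with a median of 1.26, and in HIF2α-ko 0 passed in limma (5 were higher and 0 lower at an unadjusted p under 0.05), with a median of 0.13. The background over all genes was 17.3%, 31.8% and 5.07% higher in HIF1α-ko, the dual knockout and HIF2α-ko at the adjusted threshold. No such share was counted at an unadjusted p. SESN2, a stress-induced sestrin that is also in the list around DDIT4, was at 1.67 in HIF1α-ko, 0.72 in HIF2α-ko (adjusted p = 0.0629) and 2.78 in the dual knockout. SDF2L1, a protein of the endoplasmic reticulum, was at 2.57 in HIF1α-ko and 1.16 in HIF2α-ko (adjusted p = 0.0588), and PSAT1, an enzyme of serine synthesis, at 3.29 in the dual knockout. In HIF1α-ko DDIT4 and STC2 were at 0.61 (adjusted p = 0.0960) and -0.40 (adjusted p = 0.508). Without the first vector library they were there at 0.95 (adjusted p = 0.00377) and -0.97 (adjusted p = 0.0339). In HIF2α-ko they were at 1.54 (adjusted p = 0.00496) and -0.44 (adjusted p = 0.547). DDIT4 and STC2 were at 0.12 and -0.29 in the dual knockout and did not pass. Without the first vector library they were at 0.45 (adjusted p = 0.0755) and -0.86 (adjusted p = 0.0414), so that STC2 then passed below 0. Whether these pathways acted on DDIT4 or STC2 was not tested. The count in HIF2α-ko was 0 to 4 under the alternatives tried, and the counts higher in HIF1α-ko and the dual knockout were 10 to 13 and 12 to 16.

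Replicate 1 was set apart for several markers in a way that differed between vector and the knockouts. Against the mean of replicates 2 and 3, on the log2 scale, STC2 in replicate 1 was lower by 1.71 in vector and by 0.83, 0.48 and 0.92 in the HIF1α, HIF2α and dual knockouts. DDIT4 in replicate 1 was 1.01 above the others in vector and 0.17, 0.22 and 0.72 below them in the 3 knockouts. What a replicate number marks is not given in the sources used here.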
